A study of Homo sapiens with 6 samples.

Results

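Histone deacetylases of class I and class II were followed on 24 probe sets that report 10 genes: 7 probe sets of class I (HDAC1, HDAC2, HDAC3 and HDAC8), 12 of class IIa (HDAC4, HDAC5, HDAC7 and HDAC9), 3 of class IIb (HDAC6) and 2 of HDAC11, which is the only class IV enzyme and is kept apart here. They were chosen as every probe set that the array's gene table assigns to a single one of these symbols, out of 41091 probe sets with 1 symbol (19775 genes). The other class IIb enzyme was not analysed here. The RNA came from cybrids, cells that carry the nucleus of one line and the mitochondria of another, and it was hybridised to 6 Affymetrix arrays, 3 per cybrid. Both cybrids have the nuclear background of 143B p0, an osteosarcoma line freed of mitochondrial DNA, and differ in their mitochondria, which came from the non-cancerous breast epithelial line MCF10A in 10A/143B and from the breast cancer line MDA-MB-468 in 468/143B. Donor cells of both had been enucleated by overnight actinomycin D, fused with polyethylene glycol, and selected in bromodeoxyuridine without uridine. Sample titles name the donor lines, whereas source names give the cybrids. Titles also number the arrays differently, and the numbers used here are those of the source names. In both cybrids replicate 1 is titled 3, and replicates 2 and 3 are titled 1 and 2. Whether a cybrid is 1 clone is not given in the sources used here, and the labels speak of RNA extracted in triplicate without naming separate cultures.

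Histone deacetylases remove acetyl groups from lysines of histones and other proteins. Of class I, HDAC1, HDAC2 and HDAC3 work inside nuclear corepressor complexes, HDAC1 and HDAC2 in NuRD, SIN3, CoREST and MiDAC, and HDAC3 in NCoR and SMRT. Class IIa enzymes have little catalytic activity of their own, bind MEF2 transcription factors, and leave the nucleus bound to 14-3-3 proteins once kinases such as those of the CaMK, PKD and SIK families phosphorylate them. HDAC6 is mainly cytoplasmic and deacetylates tubulin.

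The arrays bear on the series as follows. Replicates 2 and 3 were near duplicates in both cybrids: among 8172 bright probe sets (mean level above 8 in log2), the SD of the difference between them was 0.08 for 10A/143B and 0.09 for 468/143B, whereas differences from replicate 1 had SDs of 0.26 to 0.28. They were therefore averaged and counted as 1 sample, so that tests compared 2 samples with 2, and a p-value covers the spread among these arrays alone, part or all of which may be technical. A probe set "passed" where limma's adjusted p (Benjamini-Hochberg over all 41091 probe sets) was below 0.05. Differences are 10A/143B minus 468/143B in log2(intensity + 16), given with their standard error (SE), and folds derived from them understate the change of dim probe sets. Median intensities were 21.7 to 24.4 and 20.4 to 21.4 on the arrays of 10A/143B and 468/143B. The 3' to 5' signal ratio of ACTB, which reflects how intact the RNA was, came to 1.59 to 1.92 and 1.18 to 1.67, and that of GAPDH to 0.93 to 1.01 and 0.97 to 1.07; their part in the differences was not tested. The cells were checked against markers of 143B and of epithelium: VIM had mean intensities of 8687 and 8418 and RUNX2, the osteoblast factor, of 513.5 and 604.9. Others of that list were lower in 10A/143B (FN1 at 159.4 and 859.2, TWIST1 at 246.7 and 642.6, SPARC at 1483 and 2354) or dim in both (COL1A2 at 8.49 and 8.77, THY1 at 31.5 and 30.0). The epithelial markers EPCAM (55.3 and 36.8), CDH1 (7.92 and 14.9) and KRT5 (1.00 and 1.36) were dim. The keratin KRT18 was bright, at 4908 and 6198, and made up most of the epithelial sum. KRT8 read 206 and 439.2, and both KRT8 and KRT18 passed as lower in 10A/143B. Of 10 epithelial markers 0 were higher and 2 lower in 10A/143B (summed intensity 4979 to 5462 against 6425 to 6988), of 9 osteosarcoma and mesenchymal markers 0 and 3 (11550 to 12190 against 13120 to 14440), and of 9 blood and endothelial markers 0 and 0 (219.9 to 255.8 against 171 to 240.0). How far these markers bear on the deacetylases was not tested.

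Start-site windows of 300 bases (250 before and 50 after the start, RefSeq, GRCh38.p14) were found for 9 of the 10 genes, all but HDAC5. Those of the paralogues HDAC1 and HDAC2, of which HDAC2 passed and HDAC1 did not, and the outermost of 5 windows of HDAC4, the gene with the largest difference, are shown from 5' to 3' on the gene's strand. Capitals mark GC boxes, GGGCGG or its reverse complement CCGCCC, where Sp1-type factors can bind. The windows lie at chr1:32291833-32292132 on the plus strand (HDAC1), chr6:113971099-113971398 on the minus strand (HDAC2) and chr2:239401600-239401899 on the minus strand (HDAC4).
HDAC1: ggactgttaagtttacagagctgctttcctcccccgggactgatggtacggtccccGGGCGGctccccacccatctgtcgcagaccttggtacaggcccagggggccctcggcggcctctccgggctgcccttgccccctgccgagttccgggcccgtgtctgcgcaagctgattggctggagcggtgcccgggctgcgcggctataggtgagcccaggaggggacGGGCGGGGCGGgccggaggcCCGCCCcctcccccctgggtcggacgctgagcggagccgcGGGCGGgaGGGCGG
HDAC2: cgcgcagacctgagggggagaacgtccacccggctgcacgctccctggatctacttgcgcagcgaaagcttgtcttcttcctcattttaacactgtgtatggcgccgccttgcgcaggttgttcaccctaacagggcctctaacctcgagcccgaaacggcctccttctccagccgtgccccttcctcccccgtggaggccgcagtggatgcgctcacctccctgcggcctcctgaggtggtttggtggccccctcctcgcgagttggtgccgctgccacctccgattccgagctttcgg
HDAC4: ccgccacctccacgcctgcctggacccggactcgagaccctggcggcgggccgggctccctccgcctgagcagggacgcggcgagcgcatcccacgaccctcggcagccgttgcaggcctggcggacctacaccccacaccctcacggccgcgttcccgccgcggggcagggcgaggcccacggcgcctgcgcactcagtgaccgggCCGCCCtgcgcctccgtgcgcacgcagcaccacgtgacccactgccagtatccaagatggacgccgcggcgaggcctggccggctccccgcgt
The HDAC1 window held 6 GC box matches (overlaps counted) and the HDAC4 window 1, while these letters were not in the HDAC2 window. Of all 35116 windows in the table, 45.0% held at least 1. CCAAT or ATTGG, at 1 place in the HDAC1 window, was in 34.6% of all windows, and CACGTG, at 1 place in the HDAC4 window, in 7.3%. TATAAA or TTTATA (11.5% of all windows) and TGACGTCA (1.8%) were in none of the 3. With 28, 24 and 40 CpG dinucleotides, the windows of HDAC1, HDAC2 and HDAC4 were above the median of 14. The array data do not measure these windows.

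Among all deacetylase probe sets, 4 passed as higher and 2 as lower in 10A/143B, and 18 did not pass. That is 6 of 24, beside 17.9% of all 41091 probe sets (11.7% higher and 6.14% lower), and beside 33.3% of those at or above the median level over the array (5.51 in log2), where 16 of the 24 lay. The family as a whole therefore passed at about the rate of the array. The higher ones belonged to HDAC4 (both), HDAC2 and HDAC8, the lower ones to HDAC5 and HDAC8. With all 6 arrays as separate samples 5 passed as higher and 3 as lower, beside 31.0% of all probe sets (18.6% and 12.4%). Arrays of the cybrids did not overlap for 13 of the 24, beside 42.8% of all probe sets. The median difference was 0.07 over the 7 class I probe sets (from -1.75 to 1.09) and 0.10 over the 15 of class II (from -1.35 to 2.35), against 0.00 over all probe sets. Neither class moved as a block. The class II median was -0.51 without probe sets below the median level and 0.55 with an offset of 1 in place of 16. The class I median was -0.015 after quantile normalization, -0.019 after median centring and -0.011 with 1 probe set per gene. Medians over all probe sets after these scalings were -0.047 and -0.086, and that over the brightest probe set of each gene was -0.019. The sign of neither median is settled. Without replicate 1 of 10A/143B, which leaves 1 sample in that group, 2 of the 24 passed, and without replicate 1 of 468/143B 4 passed; over the whole array 1778 and 2403 passed then in place of 7341.

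**Figure D1:**
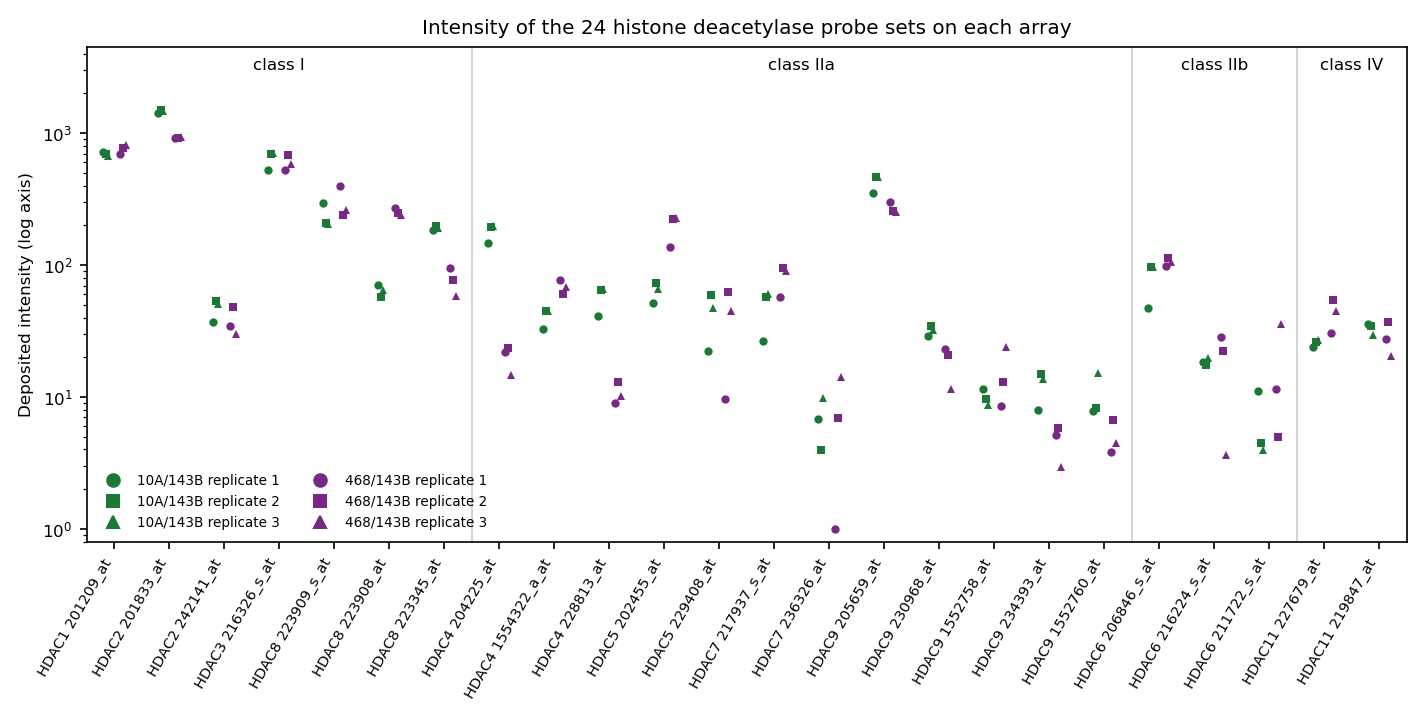
Deposited intensity (log axis) of each of the 24 probe sets, grouped by class, where a point is 1 array (10A/143B in green, 468/143B in purple, shapes for replicates). HDAC2 201833_at and HDAC4 204225_at lie higher on all 10A/143B arrays, and HDAC5 202455_at and HDAC8 223908_at lower; brightness cannot be compared between probe sets.

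HDAC2, a catalytic subunit of the class I corepressor complexes, was higher in 10A/143B on its brighter probe set. Its bright probe set 201833_at read 1418, 1489 and 1479 on replicates 1, 2 and 3 of 10A/143B and 916.5, 922.9 and 929.3 on those of 468/143B. All 10A/143B arrays lay above all 468/143B arrays, by far more than the spread within either group. The difference was 0.65 ± 0.10 (log2, SE; 1.57-fold, limma adjusted p = 0.00624), and it was 0.62 in replicate 1 and 0.67 in the mean of replicates 2 and 3. The other HDAC2 probe set, 242141_at, read 30.1 to 53.8 over all 6 arrays, its groups overlapped, and its difference was 0.19 ± 0.29 (adjusted p = 0.734). The mean of both probe sets did not pass (0.42 ± 0.13, limma adjusted p = 0.0736). HDAC2 did not pass with no intensity trend in limma (adjusted p = 0.0527), nor without replicate 1 of 10A/143B (0.0518) or of 468/143B (0.0779), within a range over its alternatives of 6.59e-05 to 0.0779.

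HDAC1, the close paralogue of HDAC2 in the same complexes, did not pass. Its single probe set read 714.1, 694.6 and 670.9 in 10A/143B and 699.4, 776.0 and 809.0 in 468/143B, and the groups overlapped. The difference was -0.09 ± 0.12 (adjusted p = 0.698), with a 95% interval from -0.38 to 0.20, whereas that of HDAC2 201833_at ran from 0.40 to 0.89. Whether the paralogues' differences differ from each other was not tested. HDAC3, the catalytic subunit of the NCoR and SMRT complexes, had 1 probe set, at 526.4, 699.4 and 709.2 in 10A/143B and 530.1, 685.0 and 588.1 in 468/143B. Replicate 1 was the lowest array in both groups, and the difference was 0.07 ± 0.17 (95% interval -0.34 to 0.47, adjusted p = 0.849).

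HDAC8, the class I enzyme that deacetylates the cohesin subunit SMC3, passed in both directions, depending on the probe set. Probe set 223908_at read 70.5, 57.7 and 64.4 in 10A/143B and 272.5, 247.3 and 240.5 in 468/143B, so all 10A/143B arrays were lower (-1.75 ± 0.19, 3.36-fold, adjusted p = 0.00191). Probe set 223345_at read 183.5, 198.1 and 191.3 in 10A/143B and 95.0, 77.7 and 58.5 in 468/143B, so all 10A/143B arrays were higher (1.09 ± 0.22, 2.13-fold, adjusted p = 0.0139). On the same array, the log2 ratio of 223345_at over 223908_at lay between 1.21 and 1.54 for 10A/143B and between -1.78 and -1.38 for 468/143B. The pair was taken because its probe sets passed in opposite directions, so these ratios had to lie apart and add no evidence. The third probe set, 223909_s_at, read 296.1, 207.9 and 206.5 against 396.2, 240.5 and 259.6, with overlapping groups and replicate 1 the brightest in each (-0.33 ± 0.25, adjusted p = 0.469); it passed as lower with the replicate block on 6 arrays alone (0.0370; over its alternatives 0.0370 to 0.992). HDAC8 mRNA thus has no settled direction. Which transcripts each probe set reads is not given in the sources used here. Without replicate 1 of 10A/143B, 223345_at did not pass (adjusted p = 0.0970; over its alternatives 6.74e-04 to 0.0970), while 223908_at passed in each of its 15 alternatives (at most 0.0459).

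HDAC4, a class IIa enzyme that holds MEF2 factors inactive and is known as a brake on chondrocyte hypertrophy and bone formation, had the largest difference of the family. Probe set 204225_at read 147.0, 194.0 and 196.7 in 10A/143B and 22.0, 23.6 and 14.7 in 468/143B. Every 10A/143B array was at least several times brighter than every 468/143B array. The ratio of mean intensities was 8.92, and the difference was 2.35 ± 0.26 (5.10-fold on the offset scale, adjusted p = 0.0020), being 2.10 in replicate 1 and 2.60 in replicates 2 and 3. It passed in each of its 16 alternatives (adjusted p 3.415e-05 to 0.0459, differences 1.47 to 3.00). The dimmer probe set 228813_at followed, at 41.4, 64.4 and 65.3 against 9.0, 13.1 and 10.2 (1.37 ± 0.31, adjusted p = 0.0224), but did not pass without replicate 1 of either group (0.0629 and 0.191; over its alternatives 9.54e-04 to 0.191). The 468/143B readings of both lay near or below the array median, so the fold is uncertain there.

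The third HDAC4 probe set went the other way. Probe set 1554322_a_at read 32.7, 45.3 and 44.6 in 10A/143B and 77.2, 60.1 and 67.6 in 468/143B. Its groups did not overlap either, with 10A/143B the dimmer, but it did not pass (-0.66 ± 0.28, adjusted p = 0.170); with all 6 arrays as separate samples it did (adjusted p = 0.0403; over its alternatives 0.0403 to 0.570). Set against 1554322_a_at on the same array, 204225_at had a log2 ratio between 1.74 and 1.81 for 10A/143B and between -1.44 and -0.94 for 468/143B. As this pair was taken because its arrays lie apart in opposite directions, the ratios had to separate and are a description only. The direction of HDAC4 thus holds for 204225_at and 228813_at and not for 1554322_a_at. With the mean of its 3 probe sets HDAC4 was still higher (1.02 ± 0.21, adjusted p = 0.0219), and it was the only one of the 10 genes to pass that way. HDAC4-AS1, annotated antisense to HDAC4 and looked at after its values were seen, had 22.0, 29.9 and 39.7 against 67.2, 83.3 and 63.1 and did not pass (-0.97 ± 0.29, adjusted p = 0.0637).

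**Figure D2:**
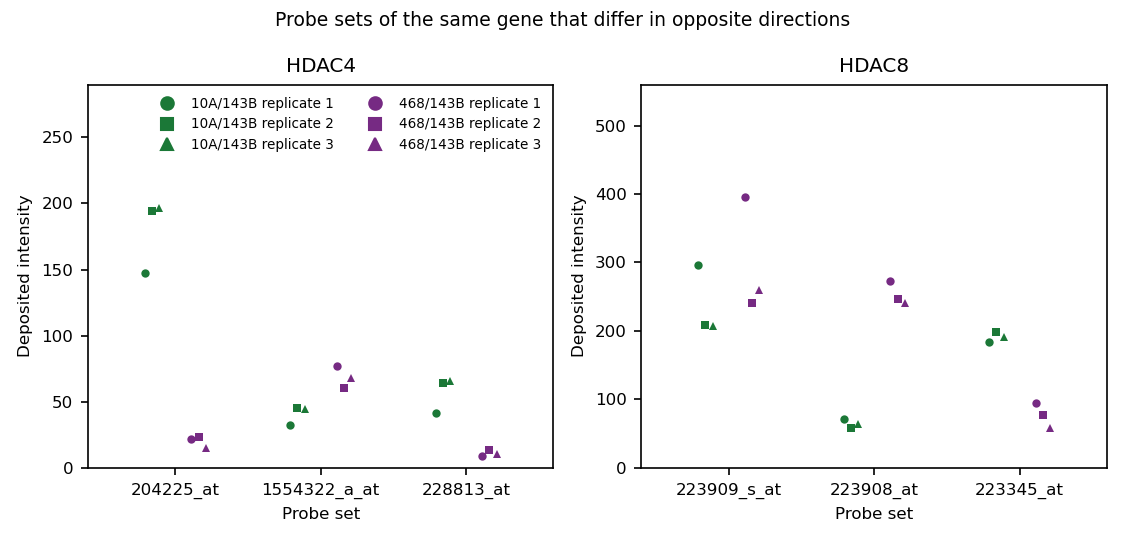
Deposited intensity (linear axis from 0) of the 3 probe sets of HDAC4 (left) and of HDAC8 (right), where a point is 1 array. For HDAC4, 204225_at and 228813_at lie higher in 10A/143B (green) and 1554322_a_at lower; for HDAC8, 223908_at lies lower at 57.7 to 70.5 and 223345_at higher at 183.5 to 198.1.

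HDAC5, the class IIa paralogue that shares MEF2 binding with HDAC4, was lower in 10A/143B on its brighter probe set. Probe set 202455_at read 51.3, 73.0 and 65.3 in 10A/143B and 137.2, 224.4 and 229.1 in 468/143B. The groups did not overlap, and replicate 1 was the dimmest array of each. The ratio of mean intensities, 468/143B over 10A/143B, was 3.12, and the difference was -1.35 ± 0.28 (adjusted p = 0.0165), being -1.19 in replicate 1 and -1.51 in replicates 2 and 3. It did not pass without replicate 1 of 10A/143B (0.132; over its alternatives 3.51e-04 to 0.132). Probe set 229408_at of HDAC5 read 22.2, 59.3 and 47.5 against 9.71, 62.2 and 44.9, where the gap between replicate 1 and the others was wider than that between cybrids (0.29 ± 0.52, adjusted p = 0.782). With both probe sets averaged HDAC5 did not pass (-0.53 ± 0.38, adjusted p = 0.422).

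HDAC9, a class IIa enzyme also made in shortened forms that lack the catalytic domain, passed on none of its 5 probe sets. On 4 of them every 10A/143B array was brighter than every 468/143B array. Over the whole array, groups did not overlap for 42.8% of probe sets, a share that takes both directions together. Of the 4 HDAC9 probe sets, 3 were below the median level of the array. The brightest, 205659_at, read 352.1, 461.4 and 464.6 in 10A/143B and 298.2, 257.8 and 254.2 in 468/143B. Its difference was 0.52 ± 0.18 (95% interval 0.11 to 0.94, adjusted p = 0.0908), with 0.23 in replicate 1 and 0.82 in replicates 2 and 3. All 6 arrays as separate samples (adjusted p = 0.00552) and the replicate number as a block on 6 arrays (0.0116) made it pass, within a range over its alternatives of 0.00552 to 0.204. The other 4 probe sets had mean intensities of at most 31.9 in 10A/143B and 18.4 in 468/143B, differences of -0.14 to 0.42, and adjusted p of 0.263 to 0.780. Probe set 1552758_at, with a difference of -0.14 ± 0.25, was the one whose arrays overlapped. HDAC7, the class IIa enzyme of endothelium and thymocytes, read 26.7, 57.7 and 60.5 against 56.9, 94.4 and 90.5 on 217937_s_at. Replicate 1 was again the dimmest of both groups, and the groups overlapped. The difference did not pass (-0.65 ± 0.37, adjusted p = 0.307), nor with the replicate block in the averaged fit (0.0974), but did with the block on 6 arrays (0.0218; over its alternatives 0.0218 to 0.736). Its other probe set, 236326_at, read 1.00 to 14.2 over all arrays, reaching the lowest value on the arrays (0.11 ± 0.23).

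HDAC6, the class IIb tubulin deacetylase, did not pass on any of its 3 probe sets. The brightest, 206846_s_at, read 47.2, 97.0 and 96.3 in 10A/143B and 99.0, 113.8 and 105.4 in 468/143B. The arrays did not overlap, but 10A/143B replicates 2 and 3 came close to 468/143B replicate 1, and the difference was -0.51 ± 0.31 (95% interval -1.25 to 0.22, adjusted p = 0.347). Its size was -0.86 in replicate 1 and -0.16 in replicates 2 and 3. The other HDAC6 probe sets, 216224_s_at and 211722_s_at, read 3.66 to 35.8, with 468/143B replicate 3 at an extreme of both (-0.02 ± 0.32 and -0.36 ± 0.24). HDAC11, the class IV enzyme known for removing fatty acyl groups, read 23.8, 26.2 and 27.1 against 30.7, 54.2 and 45.3 on 227679_at (-0.43 ± 0.31, adjusted p = 0.438) and 20.4 to 37.3 on 219847_at (0.19 ± 0.28, adjusted p = 0.729). Intervals this wide leave room for differences of about the size seen for HDAC2, so these results do not show equal levels.

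**Figure D3:**
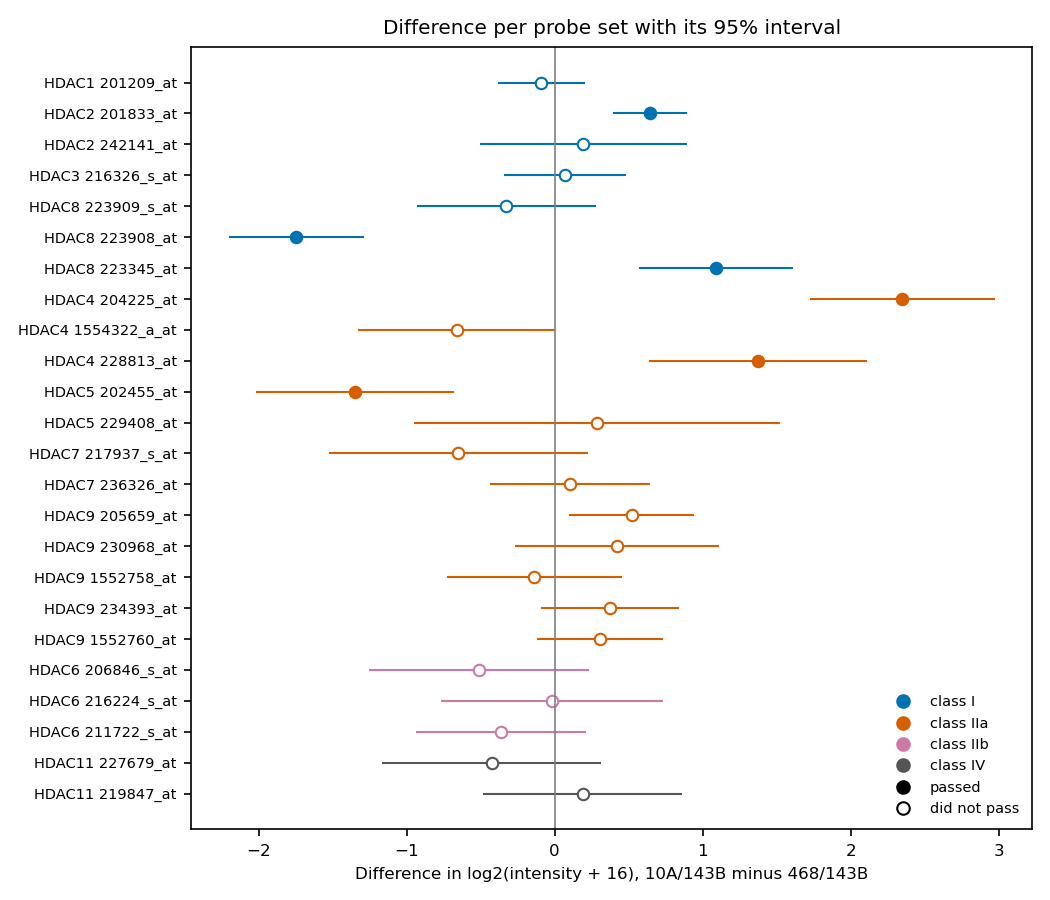
Difference in log2(intensity + 16), 10A/143B minus 468/143B, for each of the 24 probe sets, with the 95% interval of the averaged fit as a line (colour by class, filled where the probe set passed). The 6 filled points are HDAC2 201833_at, HDAC8 223908_at and 223345_at, HDAC4 204225_at and 228813_at, and HDAC5 202455_at, from -1.75 to 2.35.

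Across the array, differences went with gene length, so the length class of the members is given beside them. HDAC4, HDAC8 and HDAC9 were in the longest of 10 length classes, in which 15.0% of probe sets were higher and 3.12% lower (median 0.08), and HDAC1, HDAC2, HDAC5 and HDAC7 were in the class ranked 6 (13.9% and 5.95%, median 0.04). HDAC11, HDAC6 and HDAC3 were in the classes ranked 5, 4 and 3 (medians 0.00, -0.04 and -0.06). The part of gene length in the differences was not tested. Medians of the members' chromosomes were -0.05 to 0.07.

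Partners of the deacetylases were described with 1 probe set per gene, the brightest. Of 81 measured genes in 10 lists, 15 were higher and 11 lower in 10A/143B, beside 20.4% of the brightest probe sets of all 19775 genes (12.7% higher and 7.74% lower), with a median difference of -0.02 against -0.02. Most of these genes were brighter than the median level of the array, and 33.3% of all probe sets at or above it passed. With the replicate block the counts were 18 and 18, where 9939 of all 41091 probe sets passed. All 6 arrays as separate samples gave 21 and 23 (12744 of all), and quantile normalization 13 and 18 (7516 of all). The balance of directions is therefore not settled. Without replicate 1 of 10A/143B 4 were higher and 1 lower, and without that of 468/143B 7 and 1.

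Members of the complexes that hold class I enzymes went both ways. In NCoR and SMRT, the setting of HDAC3, 2 of 4 measured genes were higher and 1 lower (median 0.26). TBL1XR1, a WD-repeat subunit, had mean intensities of 1393 and 527.2 in 10A/143B and 468/143B (1.38 ± 0.14, adjusted p = 0.00156). Its relative TBL1X was higher by 0.76 ± 0.17, and GPS2, a small subunit of the same core, lower (-0.78 ± 0.14). In CoREST 3 of 9 were higher and 2 lower (median 0.11). The higher ones were the scaffolds RCOR1 (1.10 ± 0.15) and RCOR3 (0.95 ± 0.20) and the zinc finger subunit ZMYM2 (1.24 ± 0.14). The 2 lower ones had differences of -0.57 and -0.52. In SIN3 2 of 12 were higher and 3 lower (median -0.38). ARID4B was higher by 1.31 ± 0.16 and SUDS3, which binds the SIN3 scaffold, by 1.16 ± 0.28, whereas BRMS1, known as a metastasis suppressor, was lower (-0.93 ± 0.15). In NuRD 1 of 13 was higher and 0 lower (median 0.06): the helicase CHD5, whose call (1.18 ± 0.32, adjusted p = 0.0459) was lost on leaving out any 1 of the 6 arrays (adjusted p 0.0029 to 0.219 over its alternatives). In MiDAC DNTTIP1, which binds HDAC1 and HDAC2, was the 1 of 3 to pass (-0.83 ± 0.18; median -0.43).

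Genes around class IIa enzymes also went both ways. MEF2A, a transcription factor that HDAC4 and its relatives bind, was higher, at 382.7, 340.1 and 359.5 against 118.6, 147.0 and 139.1 (1.38 ± 0.17, adjusted p = 0.00249), and was the 1 of 3 MEF2 factors to pass (median 0.58). Its arrays were far apart, but of its other 3 probe sets none passed (-0.22 to 0.65). Among kinases that phosphorylate class IIa enzymes or are related to those that do, 3 of 13 were higher and 1 lower (median -0.10). PRKD3 of the PKD family read 1024, 1113 and 1046 against 484.4, 474.4 and 501.5 (1.09 ± 0.11, adjusted p = 0.00167). Of the salt-inducible kinases, SIK3 was higher (1.28 ± 0.20) and SIK1 lower (-1.47 ± 0.27), with mean intensities of 178.3 and 66.9, and of 47.5 and 148.6. In the 14-3-3 proteins, 1 of 7 was higher and 1 lower (median 0.02), YWHAQ by 0.48 ± 0.09 and SFN, the epithelial 14-3-3 sigma, by -0.88 ± 0.23. Of 10 HDAC6 substrates and partners, HSP90AA1, the chaperone that HDAC6 deacetylates, was the 1 that passed (0.47 ± 0.09, adjusted p = 0.0135; median 0.00). Of the 7 sirtuins, the NAD-dependent class III deacetylases, SIRT1 of the nucleus was higher (0.61 ± 0.14), and SIRT5 of mitochondria (-0.88 ± 0.22) and SIRT6 of chromatin (-0.79 ± 0.19) were lower (median -0.37). These 21 partners had adjusted p of 0.00156 to 0.0459, and TBL1XR1, ZMYM2 and PRKD3 passed in all 16 alternatives. The other 18 did not pass in at least 1, 17 of the 21 without replicate 1 of 10A/143B and 14 without that of 468/143B (adjusted p up to 0.285). SIRT1 and SIRT5 did not pass in 4 alternatives, and SUDS3, TBL1X, SFN, YWHAQ and HSP90AA1 in 3. Of the 51 other probe sets of 18 of these genes, 10 passed in the same direction and 0 in the opposite one, while 41 did not pass and 15 had the opposite sign. The 10 belonged to TBL1XR1, ZMYM2, DNTTIP1, PRKD3, SFN, YWHAQ and HSP90AA1. Probe sets disagreed in sign for ARID4B (others at -0.28 to 0.01), RCOR1 (-0.89), RCOR3 (-0.88 and 0.09) and SIK3 (-0.63 to 1.06). They also did for SIK1 (0.085), SIRT5 (-0.99 to 0.37), TBL1X (-0.16 to 0.50) and MEF2A (-0.22 to 0.65). TBL1XR1 and ZMYM2 had others of the opposite sign too (down to -0.31 and -0.30), beside others that passed. Apart from the genes with another passing probe set, each call rests on the brightest probe set alone.

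**Figure D4:**
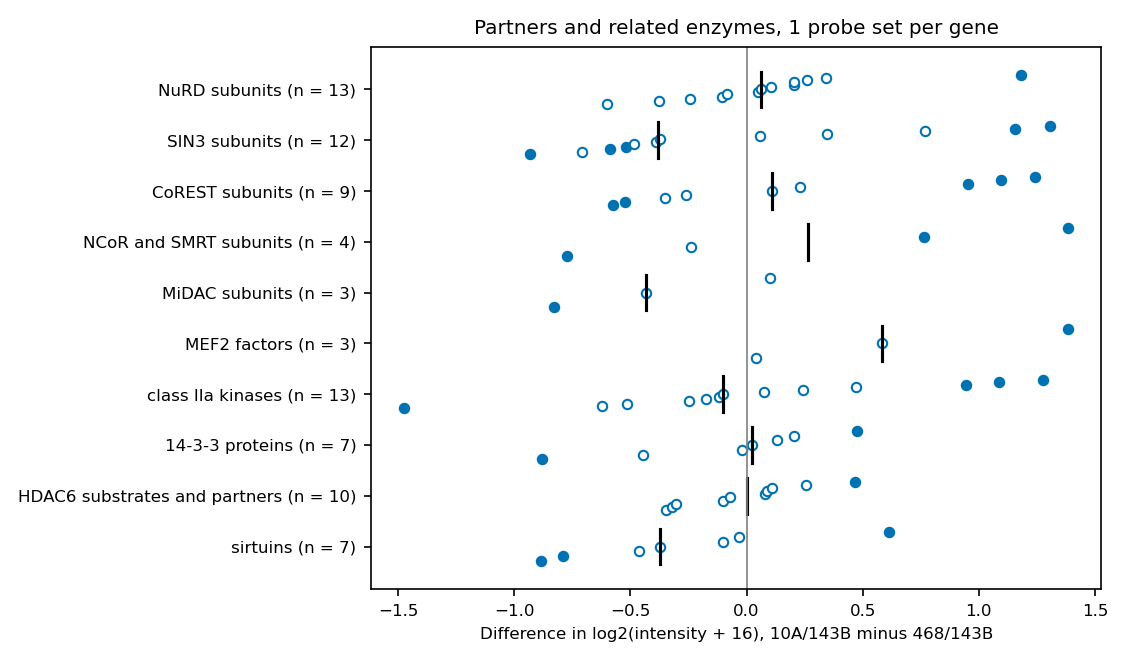
Difference in log2(intensity + 16), 10A/143B minus 468/143B, of 81 genes in 10 lists of deacetylase partners and related enzymes, with 1 point per gene (its brightest probe set), filled where it passed, and a bar at the list median. Filled points lie on both sides of 0 in 6 of the lists, and medians run from -0.43 in MiDAC to 0.58 in the MEF2 factors.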

How the data were processed

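Messenger RNA of 3 arrays of 10A/143B and 3 of 468/143B cybrids was compared. The authors deposited linear array intensities, 1 for each probe set. How they were summarised, background-corrected and scaled is not given in the sources used here. The lowest value is 1, and log2 of 100% of them is a multiple of 0.01 (tolerance 1e-05). No detection calls were used. Precision is limited by the number of arrays. Of 54675 probe sets, 41091 had 1 symbol and were no controls. Symbols of 41037 were updated or kept through Entrez identifiers in RefSeq (GRCh38.p14).

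Values were used as deposited, as log2(intensity + 16). Replicates 2 and 3 were averaged, and limma 3.58.1 (R 4.3.3; lmFit and eBayes, intensity trend) compared the groups, after the procedure had been tested on simulated data. Groups and numbers came from source names. Deviations of same-numbered arrays from their group means correlated at 0.27, 0.21 and 0.21 over probe sets above a level of 8. A fit with the replicate number as a block was therefore set beside the reported fit, which has none. Replicates 2 and 3 correlated across numbers as well (0.20 and 0.26), and replicate 1 with either at -0.26 to -0.22. As the 3 deviations of a group are not independent, these values are not separate signs of pairing by number. The members, gene lists and tests were chosen with earlier results of these data known. Named were all member probe sets, up to 3 passing partners per list with the largest difference, and VIM, RUNX2, EPCAM, CDH1 and KRT5. KRT8, KRT18, FN1, TWIST1, SPARC, COL1A2, THY1 and HDAC4-AS1 were named after their values were seen. Alternatives were the 6 arrays unaveraged, the replicate block, 2 scalings, offsets of 1 and 64, a level filter, no trend, gene-level summaries, and leaving out each array.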

Additional observations from a re-analysis of the deposited data

How the results depend on the processing

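Probe sets were fitted singly in 16 of the 17 alternatives at most, since averaging a gene's probe sets gives no value per probe set. There 337 values of deacetylase probe sets kept direction and side of the threshold, 7 no longer passed, 5 newly passed and 13 changed sign. The sign changes were in 4 probe sets that passed in no fit: HDAC7 236326_at (-0.001 with 6 arrays, without and with the block), HDAC6 216224_s_at (0.099 in those fits and 0.153 with an offset of 1) and HDAC3 216326_s_at (-0.015 after quantile normalization and -0.019 after median centring), and, leaving out 1 array, HDAC3 (-0.058 to 0.273), HDAC5 229408_at (-0.427 to 0.715), HDAC7 236326_at (-0.21 to 0.205) and HDAC6 216224_s_at (-0.257 to 0.331). The replicate block in the averaged fit changed no deacetylase call; it gave 18 lower partners in place of 11. On 6 arrays the block gave 4 lower deacetylase probe sets, 13797 probe sets in all, 48 partners and 26 lower ones. The 6 arrays as separate samples gave 12744 probe sets, 44 partners and 23 lower ones. No intensity trend gave 15 partners, 4 of them lower, and quantile normalization 18 lower. One probe set per gene gave 4483 genes, with 3 deacetylases (2 higher, 1 lower) and a class II median of -0.51, and averaging each gene's probe sets 3219 genes, with 1 deacetylase (1 higher, 0 lower) and a median of -0.27. The class II median was -0.51 with the level filter and 0.55 with an offset of 1. The cause of these shifts was not tested. Leaving out 1 array gave 2 to 6 deacetylase probe sets (1 to 4 higher, 1 to 2 lower), class I medians of -0.01 to 0.27, class II medians of -0.21 to 0.22, 5 to 25 partners (4 to 15 higher, 1 to 11 lower) and 1778 to 7039 probe sets in all. The lowest counts came without a replicate 1 array, where the lone sample left is assumed to vary like those of the other group. Of calls, 65.6% were higher as deposited, 54.4% after quantile normalization and 56.8% after median centring.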
